A study of Mus musculus with 16 samples.

Results

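The core circadian clock genes are described here in quadriceps muscle of tumour-bearing and tumour-free mice. The members were the rows of the raw count table with the symbols Arntl, Clock, Npas2, Per1, Per2, Per3, Cry1, Cry2, Nr1d1 and Nr1d2. All 10 were among the 13320 genes of the table, and each had counts in all 16 libraries, from 12 counts of Npas2 to 14405 of Nr1d1. All groups were of CD2F1 males, 8 weeks old at the start, with 4 libraries in each of 4 groups. C26 cells derive from a mouse colon carcinoma, and mice that carry them lose muscle. The splenic C26 group received the cells in the spleen, a route that seeds the liver, and the sham group had the operation with saline. The subcutaneous C26 group received the cells under the skin, and the treatment of the control group is not given in the sources used here. Neither is whether each library came from its own animal, and the p-values therefore reflect only the scatter among these samples, which may be technical. The labels give no time of day of collection, and clock transcripts cycle over the day, so time of day and group cannot be told apart.

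The circadian clock is a transcriptional loop that runs in almost every cell. BMAL1, encoded by Arntl, pairs with CLOCK or its relative NPAS2 and activates genes through E-box sequences, among them the Period and Cryptochrome genes, whose proteins return to the nucleus and repress the pair. In a second loop the nuclear receptors REV-ERB alpha and beta, encoded by Nr1d1 and Nr1d2, repress Arntl through an element that the ROR receptors use to activate it. In skeletal muscle this clock times the use of fuels, and glucocorticoids are known to induce Per1.

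Total counts were 25.9 to 34.9 M per library. The 10 skeletal muscle fibre markers were all measured and together took 11.6% to 27.0% of scaled counts. Levels are CPM, the counts of a gene per 1 M counts of the library after scaling by trimmed mean of M-values (TMM). Several libraries stood apart. Of the hepatocyte list, 9 of 10 markers were measured, and their summed level was 138 CPM in splenic C26 replicate 1, at most 5.16 CPM in sham, 32.8 to 238 CPM in control (highest in replicate 4) and 1.86 to 6.62 CPM in subcutaneous C26, which did not overlap control. The neutrophil list, 9 of 9 measured, summed to 18.9 to 2490 CPM in splenic C26 (highest in replicate 3), to 23.2 to 443 CPM in subcutaneous C26, to at most 50.1 CPM in control (replicate 1) and to at most 1.84 CPM in sham. Its gene Ngp stood at 0.0957, 0.325, 45.8 and 1.05 CPM in splenic C26 replicates 1 to 4 and at 0.124 to 5.11 CPM in subcutaneous C26. The sums of the tumour groups thus rested mostly on other genes of the list. In subcutaneous C26 replicate 4 the red cell gene Slc4a1 and the proliferation gene Mki67 stood at 70.2 and 52.3 CPM. The 6 markers of fibro-adipogenic progenitors, the connective tissue precursors of muscle, summed to 1167 to 2147 CPM in control, 392 to 761 CPM in subcutaneous C26, 1496 to 1876 CPM in sham and 348 to 1234 CPM in splenic C26. The 6 Schwann cell markers summed to 65.9 to 75.6 CPM in sham and 30.1 to 59.5 in splenic C26, and to 57.3 to 88.8 CPM in control and 31.0 to 51.1 in subcutaneous C26. For both of these cell types neither tumour group overlapped its tumour-free group. The 6 endothelial markers summed to 280 to 316 CPM in control and 155 to 207 in subcutaneous C26, with no overlap, and to 227 to 281 CPM in sham and 197 to 367 in splenic C26. The 3 measured of 7 red cell markers summed to 4.04 to 5.72 CPM in sham and 11.6 to 46.0 in splenic C26, with no overlap, and to 3.70 to 14.1 CPM in control and 8.60 to 131 in subcutaneous C26. The ranges overlapped in both comparisons for 7 macrophage markers (85.8 to 253 CPM over the 16 libraries) and 3 measured of 5 proliferation markers (0.903 to 65.9 CPM). The part of these cell types in the clock gene values was not tested. Counts are given below without 4 libraries, those with the neutrophil gene Ngp or Mki67 over 10 CPM or, outside the control group, the hepatocyte gene Alb over 10 CPM. Control replicates 2, 3 and 4 were kept in that fit, with Alb at 67.7, 24.6 and 127 CPM. Glucocorticoid-induced genes, a list of 14, had a mean log2 level 2.04 above that of tumour-free muscle in splenic C26 replicate 1, while its other 3 libraries had 3.0 to 3.66. In subcutaneous C26 replicate 3 the same difference was 1.85, and in replicates 1, 2 and 4 of that group it was 3.11 to 3.26. In bulk tissue fewer cells of a type and less RNA per cell cannot be told apart.

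The sequences before the gene starts are shown because the members are linked by known promoter elements. RefSeq starts (build GRCm38.p6) were found for 9 of the 10 members, at 13 starts, and Per2 was not matched. The 250 bases before each start were searched on both strands for short motifs, in which N is any base. These were the E-box CACGTG, the E-prime box CACGTT, the D-box TTANGTAA and a loose REV-ERB and ROR string, TNGGTCA. The cAMP element TGACGTCA and the glucocorticoid core element TGTTCT were also searched. The E-box was present before 6.02% of 32851 mouse gene starts, the E-prime box before 3.85% and the D-box before 2.06%. The REV-ERB and ROR string was present before 9.19%, the cAMP element before 1.55% and the glucocorticoid core element before 16.1%. Over the 12930 starts of genes in the count table the shares, in the same order, were 8.17%, 4.27%, 1.34%, 8.34%, 2.44% and 10.9%. A match of these letters is a description and not a bound site. Of the 9 members, 6 held at least 1 match at any of their starts. The share of all genes with any match was not computed, so no excess can be read from this count. The first listed starts of these 6 are printed 5′ to 3′ with the matches in capitals.
Arntl (chr7:113207215-113207464, plus strand): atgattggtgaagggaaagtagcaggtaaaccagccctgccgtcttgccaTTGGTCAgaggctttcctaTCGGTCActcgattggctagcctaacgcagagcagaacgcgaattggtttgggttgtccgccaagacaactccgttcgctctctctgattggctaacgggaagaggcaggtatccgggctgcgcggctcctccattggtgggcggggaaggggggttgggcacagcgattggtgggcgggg
Per1 (chr11:69098699-69098948, plus strand): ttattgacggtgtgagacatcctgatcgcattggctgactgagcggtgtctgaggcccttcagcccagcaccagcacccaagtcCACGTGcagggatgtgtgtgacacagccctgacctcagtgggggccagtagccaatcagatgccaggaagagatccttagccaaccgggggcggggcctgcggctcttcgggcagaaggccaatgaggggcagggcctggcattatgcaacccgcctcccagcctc
Per3 (chr4:151044666-151044915, minus strand): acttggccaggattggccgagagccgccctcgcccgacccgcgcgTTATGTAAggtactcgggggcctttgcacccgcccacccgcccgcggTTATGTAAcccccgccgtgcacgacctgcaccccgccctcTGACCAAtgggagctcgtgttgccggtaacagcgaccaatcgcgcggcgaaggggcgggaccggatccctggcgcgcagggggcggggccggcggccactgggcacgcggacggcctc
Cry1 (chr10:85185055-85185304, minus strand): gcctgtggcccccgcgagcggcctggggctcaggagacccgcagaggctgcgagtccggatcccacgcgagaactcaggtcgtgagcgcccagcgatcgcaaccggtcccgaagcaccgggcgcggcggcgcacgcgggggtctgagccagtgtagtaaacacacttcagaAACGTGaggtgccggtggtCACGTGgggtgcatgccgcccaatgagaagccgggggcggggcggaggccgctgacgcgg
Cry2 (chr2:92434070-92434319, minus strand): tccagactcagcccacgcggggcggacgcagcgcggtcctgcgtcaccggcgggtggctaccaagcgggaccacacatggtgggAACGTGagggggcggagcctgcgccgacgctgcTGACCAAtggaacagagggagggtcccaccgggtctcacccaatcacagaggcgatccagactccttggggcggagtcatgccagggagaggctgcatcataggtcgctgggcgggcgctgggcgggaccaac
Nr1d1 (chr11:98775378-98775627, minus strand): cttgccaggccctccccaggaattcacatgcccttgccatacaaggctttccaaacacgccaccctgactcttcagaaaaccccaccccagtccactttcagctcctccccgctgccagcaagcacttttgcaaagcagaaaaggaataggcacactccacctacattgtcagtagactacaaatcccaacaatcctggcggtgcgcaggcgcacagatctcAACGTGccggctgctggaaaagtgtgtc
The printed windows of Arntl, Per3, Cry2 and Nr1d1 hold 0 bases of GENCODE M21 exons, that of Per1 1 base and that of Cry1 10 bases. Per1 and Cry1 held an E-box, and Cry1, Cry2 and Nr1d1 an E-prime box. Per3 held the D-box at 2 places, ending 198 and 151 bases before the start, and the loose REV-ERB and ROR string at 1 place. Arntl held this string at 2 places, the first from 200 to 194 bases before the start, and Cry2 at 1 place. Each match of this string read TTGGTCA or TCGGTCA on 1 strand, with T or C at the open base. Whether any of them is the element of the second loop was not tested. None of the 4 motifs found was present in the windows of Clock, Npas2 and Nr1d2, and no member window held the cAMP or the glucocorticoid core element.

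In splenic C26 against sham, 5 members rose (Arntl, Npas2, Per1, Per2 and Cry2), 2 fell (Nr1d1 and Nr1d2) and 3 did not pass (Clock, Per3 and Cry1) at an adjusted p under 0.05. In subcutaneous C26 against control the same 5 rose, 1 fell (Nr1d1) and 4 did not pass (Clock, Per3, Cry1 and Nr1d2). Over all 13320 genes, 52.0% passed in the splenic comparison, 28.1% higher and 23.9% lower. In the subcutaneous comparison 50.0% passed, 27.0% higher and 23.1% lower. The counts of 7 and 6 of 10 are therefore to be read against a background near 5 in 10. The median absolute log2 fold change of the members was 0.93 in the splenic and 1.08 in the subcutaneous comparison, and that of all genes was 0.57 and 0.55. The 4 tumour libraries lay wholly outside the range of their tumour-free group for 7 members in the splenic comparison (42.2% of all genes) and for 8 in the subcutaneous comparison (45.9%). With upper-quartile scaling 2749 genes were higher and 4384 lower in the splenic comparison, and 2412 higher and 4509 lower in the subcutaneous comparison, in place of 3745 and 3186 and of 3593 and 3072. Without the 4 libraries over those limits of Ngp, Mki67 or Alb (splenic C26 replicates 1 and 3, control replicate 1 and subcutaneous C26 replicate 4), 6 members rose and 3 fell in the splenic comparison, where 54.2% of all genes passed. In the subcutaneous comparison 3 rose and 1 fell, where 44.5% of all genes passed.

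**Figure D1:**
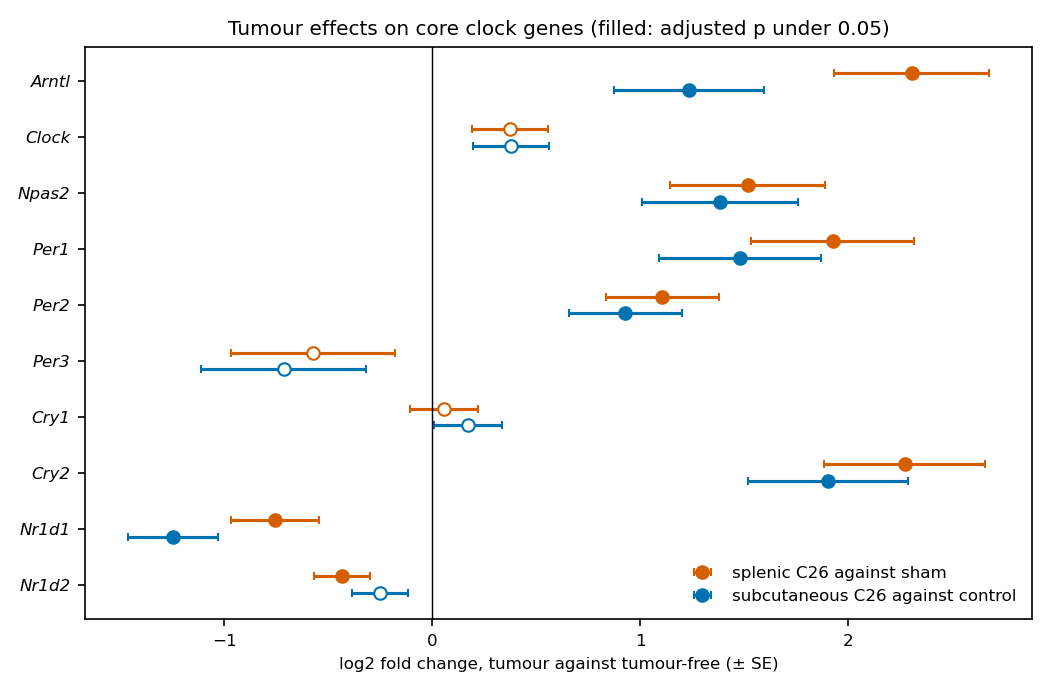
Log2 fold changes of the 10 clock genes (x axis, ± SE) in splenic C26 against sham and in subcutaneous C26 against control, with filled points for an adjusted p under 0.05. Arntl, Npas2, Per1, Per2 and Cry2 lie to the right of 0 with filled points in both comparisons, and Nr1d1 to the left.

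Among the activators, Arntl (chromosome 7, 113207465 to 113314126, plus strand, GENCODE M21 on mm10) had the largest log2 fold change of the 10 members in splenic C26. It stood at 9.16, 13.8, 16.02 and 14.1 CPM in sham replicates 1 to 4 and at 22.8, 47.2, 120.0 and 73.0 CPM in splenic C26 replicates 1 to 4. In control it stood at 15.5, 20.2, 14.4 and 23.4 CPM and in subcutaneous C26 at 38.3, 43.33, 38.1 and 53.7 CPM. All 8 tumour libraries but splenic C26 replicate 1 lay above every tumour-free library, and that replicate lay above all of sham. Mean Arntl in splenic C26 was 65.8 ± 41.5 CPM against 13.3 ± 2.91 CPM in sham (SD, n = 4), a rise of 2.31 ± 0.37 on the log2 scale (SE, edgeR quasi-likelihood test, adjusted p = 0.000312). In subcutaneous C26 the mean was 43.34 ± 7.29 CPM against 18.4 ± 4.21 CPM in control, a rise of 1.24 ± 0.36 (adjusted p = 0.0111, edgeR). Clock (chromosome 5, 76209868 to 76304792, minus strand), the usual partner of BMAL1, stood at 45.1, 46.2, 50.8 and 46.3 CPM in sham and at 38.2, 50.7, 85.6 and 69.6 CPM in splenic C26. The splenic C26 libraries thus spanned values below and above all of sham, and the log2 fold change of 0.37 ± 0.18 did not pass (adjusted p = 0.0964, edgeR). Without splenic C26 replicate 1, the lowest, Clock passed at 0.55 (adjusted p = 0.00379, edgeR). Without splenic C26 replicate 3, the highest, Clock was 0.17 and did not pass (adjusted p = 0.407, edgeR). In subcutaneous C26 Clock ranged from 58.4 to 65.0 CPM, above the control range of 44.7 to 55.8 CPM, and did not pass either (0.38 ± 0.18, adjusted p = 0.0934, edgeR). Npas2 (chromosome 1, 39193731 to 39363236, plus strand), the CLOCK relative, was scarce in all groups. It stood at 0.649, 1.13, 1.79 and 0.926 CPM in sham and at 4.28, 2.17, 3.15 and 3.38 CPM in splenic C26, where every library was above sham. Its log2 fold change was 1.52 ± 0.37 in splenic C26 (adjusted p = 0.00388, edgeR) and 1.38 ± 0.37 in subcutaneous C26 (adjusted p = 0.00725, edgeR).

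**Figure D2:**
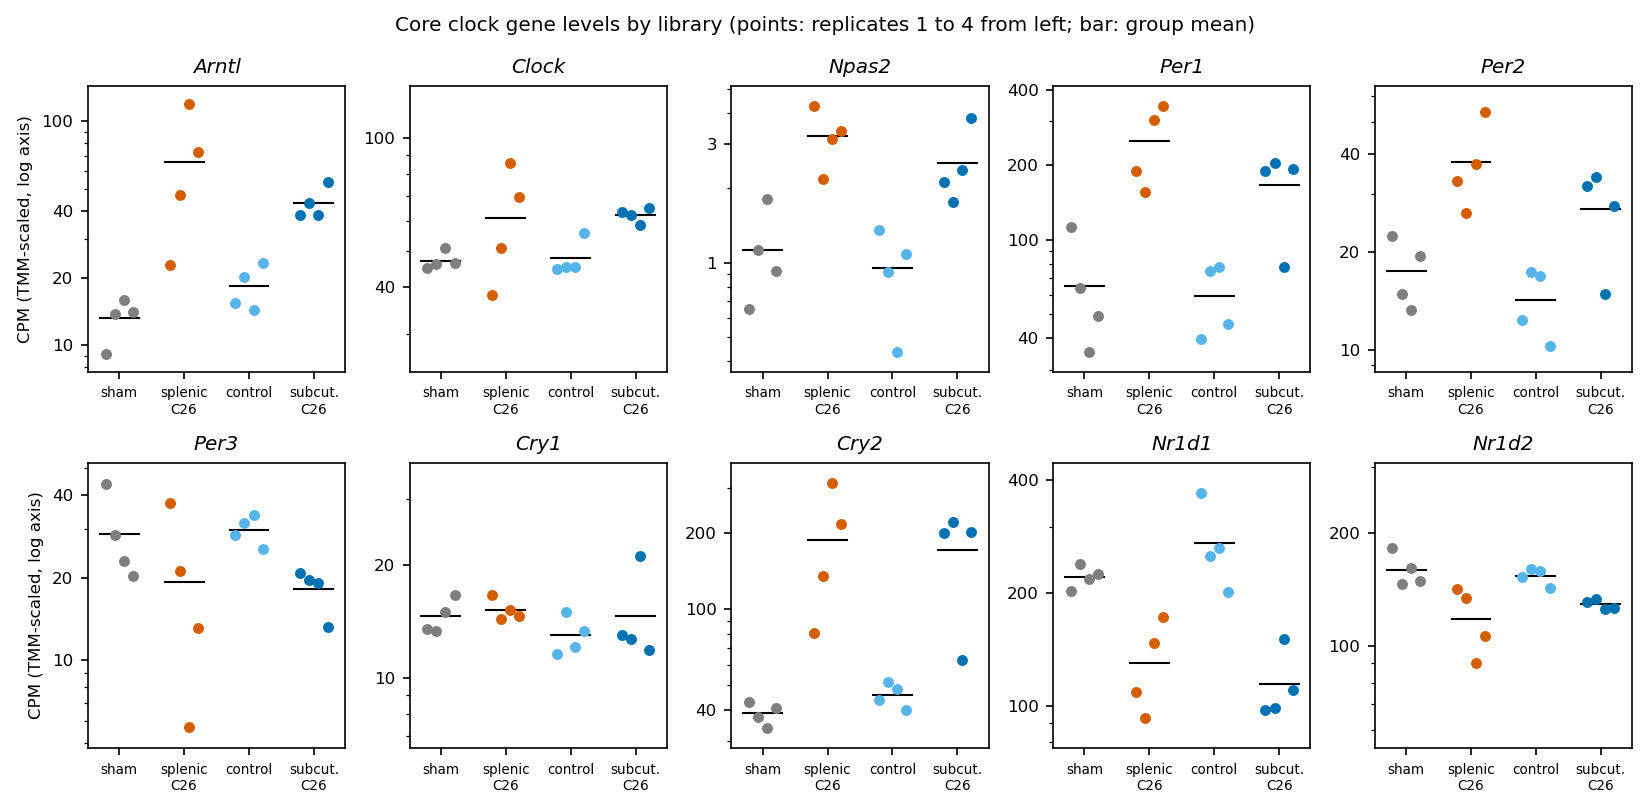
Level of each of the 10 genes in CPM (log axis, 1 panel a gene) in the 4 groups, with points for replicates 1 to 4 from left to right and a bar for the group mean. Cry2 stands at 33.8 to 51.3 CPM in the tumour-free libraries and at 62.9 to 316 CPM in the tumour libraries, while the 4 groups overlap for Cry1.

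The 3 Period genes encode the repressors that pair with cryptochromes, and of these Per1 and Per2 rose in both comparisons and Per3 passed in neither. Per1 (chromosome 11, 69095217 to 69109960, plus strand) stood at 113, 63.8, 35.2 and 49.4 CPM in sham and at 189, 156, 302 and 346 CPM in splenic C26. It stood at 39.7, 74.7, 77.5 and 45.8 CPM in control and at 189, 203, 77.6 and 193 CPM in subcutaneous C26. Subcutaneous C26 replicate 3 thus stood level with the highest control library, and the other 3 far above. Per1 rose by 1.93 ± 0.39 on the log2 scale in splenic C26 (adjusted p = 0.00133, edgeR) and by 1.48 ± 0.39 in subcutaneous C26 (adjusted p = 0.0063, edgeR). Without the 4 libraries its subcutaneous value was 1.24 (adjusted p = 0.055, edgeR). Per2 (chromosome 1, 91415982 to 91459324, minus strand) stood at 22.3, 14.8, 13.3 and 19.5 CPM in sham and at 33.1, 26.4, 37.3 and 53.8 CPM in splenic C26, with no overlap. In subcutaneous C26 it stood at 31.8, 33.9, 14.9 and 27.7 CPM, with replicate 3 inside the control range of 10.3 to 17.4 CPM. Per2 rose by 1.11 ± 0.27 (adjusted p = 0.00413, edgeR) and by 0.93 ± 0.27 (adjusted p = 0.0115, edgeR). The subcutaneous call of Per2 was lost without subcutaneous C26 replicate 2 (0.77, adjusted p = 0.0509, edgeR) and without the 4 libraries (0.85, adjusted p = 0.077, edgeR).

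Per3 (chromosome 4, 151003652 to 151044665, minus strand), the third Period gene, had negative fold changes that did not pass. It stood at 43.76, 28.5, 22.9 and 20.3 CPM in sham and at 37.4, 21.1, 5.73 and 13.2 CPM in splenic C26. Splenic C26 replicate 3 had the lowest value of all 16 libraries and replicate 1 lay within sham. The log2 fold change was -0.57 ± 0.40 (adjusted p = 0.234, edgeR), and without splenic C26 replicate 1 it was -1.10 and passed (adjusted p = 0.0133, edgeR). Without splenic C26 replicate 3 it was -0.27 and did not pass (adjusted p = 0.491, edgeR). In subcutaneous C26 Per3 stood at 20.8, 19.5, 19.1 and 13.3 CPM, below each control library (25.4 to 33.9 CPM). The value of -0.72 ± 0.40 did not pass with the spread of all 16 libraries (adjusted p = 0.144, edgeR) and passed when only the 8 libraries of that comparison were fitted (-0.72, adjusted p = 0.00524, edgeR). The SD of Per3 on the log2 scale was 1.14 in splenic C26 and 0.18 to 0.49 in the other 3 groups.

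The cryptochromes, flavoproteins that repress CLOCK and BMAL1, were not called alike: Cry2 rose in both comparisons and Cry1 passed in neither. Cry2 (chromosome 2, 92403646 to 92434043, minus strand) stood at 43.0, 37.6, 33.8 and 40.5 CPM in sham and at 80.2, 135, 316 and 217 CPM in splenic C26. In control it stood at 43.5, 51.3, 48.2 and 39.9 CPM and in subcutaneous C26 at 199.9, 221, 62.9 and 201 CPM. All 8 tumour libraries were above all 8 tumour-free libraries, with subcutaneous C26 replicate 3 and splenic C26 replicate 1 the lowest of the 8. Cry2 rose by 2.27 ± 0.39 in splenic C26 (adjusted p = 0.000431, edgeR) and by 1.90 ± 0.38 in subcutaneous C26 (adjusted p = 0.00126, edgeR). Exons of the transcript D930015M05Rik on the opposite strand share 295 bases with those of Cry2 (4.67% of its exon length), and this transcript was not analysed here. Cry1 (chromosome 10, 85131700 to 85185064, minus strand) stood at 13.5, 13.3, 14.998 and 16.6 CPM in sham and at 16.6, 14.4, 15.2 and 14.64 CPM in splenic C26. It stood at 11.6, 15.01, 12.1 and 13.3 CPM in control and at 12.99, 12.7, 21.04 and 11.9 CPM in subcutaneous C26, where replicate 3 was the highest of all 16 libraries. Its log2 fold changes were 0.057 ± 0.16 (adjusted p = 0.783, edgeR) and 0.17 ± 0.16 (adjusted p = 0.399, edgeR), and their sign turned with upper-quartile scaling (-0.15 and -0.061).

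Nr1d1 (chromosome 11, 98767932 to 98775333, minus strand), which encodes REV-ERB alpha, stood at 202, 238, 218 and 224 CPM in sham and at 109, 93.0, 148 and 172 CPM in splenic C26. It stood at 369, 251, 264 and 201 CPM in control and at 97.8, 98.6, 151 and 110.1 CPM in subcutaneous C26. All 8 tumour libraries were below all 8 tumour-free libraries. Its log2 fold change was -0.76 ± 0.21 in splenic C26 (adjusted p = 0.00891, edgeR) and -1.25 ± 0.22 in subcutaneous C26 (adjusted p = 0.00046, edgeR). The 3′ exons of Thra, the thyroid hormone receptor alpha gene on the opposite strand, share 263 bases with Nr1d1 (8.55% of its exon length), and the strand setting of the counting is not given in the sources used here. Thra ranged from 72.6 to 93.0 CPM in the tumour-free and from 55.9 to 83.4 CPM in the tumour libraries and did not pass (-0.26 ± 0.13 in both comparisons, adjusted p = 0.109 and 0.112, edgeR). Nr1d2 (chromosome 14, 18204054 to 18239127, minus strand), which encodes REV-ERB beta, passed in splenic C26 only. It stood at 182, 147, 161 and 149 CPM in sham and at 142, 134, 90.3 and 106 CPM in splenic C26, and all 4 splenic C26 libraries were below sham. The fall of -0.43 ± 0.13 passed (adjusted p = 0.0144, edgeR) and did not pass without sham replicate 1 (-0.36, adjusted p = 0.0503, edgeR) or when only the 8 libraries of the comparison were fitted (-0.43, adjusted p = 0.0655, edgeR). The difference between the tumour effects on Nr1d2 did not pass either. In subcutaneous C26 the range of 126 to 133 CPM was below that of control, 143 to 161 CPM, without passing (-0.25 ± 0.13, adjusted p = 0.129, edgeR), and it passed with upper-quartile scaling (-0.49, adjusted p = 0.0153, edgeR).

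No member passed the test of a difference between the tumour effects or between the tumour-free groups. The sample titles of sham and splenic C26 share a prefix, and those of control and subcutaneous C26 share another, whose meaning is not given. Each tumour group was compared within its prefix, and a difference between sham and control cannot be told apart from one between prefixes. For the splenic effect minus the subcutaneous effect, the adjusted p of the 10 members was 0.781 to 0.999 (edgeR). The largest difference was that of Arntl, 1.07 ± 0.50 on the log2 scale (adjusted p = 0.781, edgeR). Over all genes 0% passed in this test, and 6.39% had an unadjusted p under 0.05. DESeq2 called 86 genes, with 0 members among them, and edgeR without splenic C26 replicate 2 called 66, also with 0 members. Between sham and control the log2 differences of the members ran from -0.47 (Arntl) to 0.30 (Per2), each with an adjusted p of 1.0 (edgeR), where 0.00751% of all genes passed. The median SD of the members on the log2 scale was 0.248 in sham and 0.253 in control, and the median over all genes was 0.151 and 0.176. In splenic C26 the medians were 0.470 and 0.411, and in subcutaneous C26 0.336 and 0.309.

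**Figure D3:**
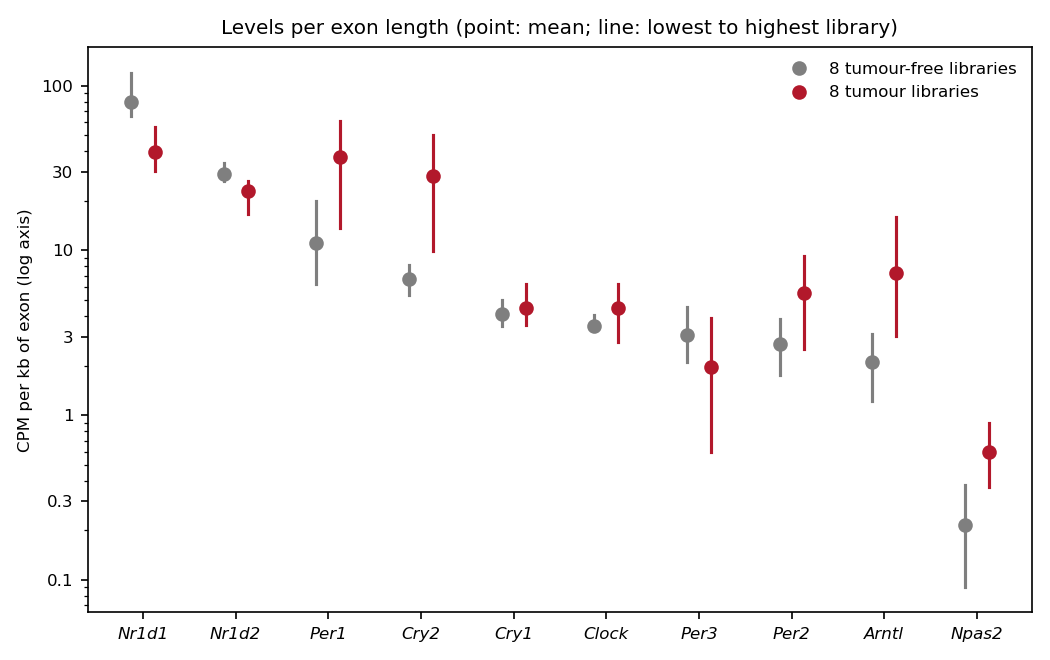
Level per kilobase of exon (log axis, in CPM per kb) of the 10 genes, with the mean as a point and a line from the lowest to the highest library, for 8 tumour-free and 8 tumour libraries. Nr1d1 falls from 79.9 to 39.8 CPM per kb, and Per1 and Cry2 come up to near its level.

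Per exon length, levels can be set roughly side by side between genes, and the order of the means is given for tumour-free and tumour libraries in turn. The length joins all annotated exons of a gene, not those of the transcripts made in muscle, so close places may depend on it. In the 8 tumour-free libraries Nr1d1 led with a mean of 79.9 CPM per kb (SD 17.7), followed by Nr1d2 at 29.0, Per1 at 11.1, Cry2 at 6.68, Cry1 at 4.13, Clock at 3.46, Per3 at 3.06, Per2 at 2.71, Arntl at 2.104 and Npas2 at 0.216. The first 5 were each above the next in 8 of 8 libraries, except that Cry1 was above Clock in 7. Clock and Per3, Per3 and Per2, and Per2 and Arntl overlapped, the former being higher in 6, 7 and 7 of 8 libraries. In splenic C26 Per1 led with a mean of 44.1 CPM per kb (SD 16.03), followed by Nr1d1 at 42.4, Cry2 at 29.6, Nr1d2 at 21.9, Arntl at 8.74, Per2 at 6.43, Cry1 at 4.55, Clock at 4.45, Per3 at 2.01 and Npas2 at 0.677. In subcutaneous C26 Nr1d1 led at 37.1 CPM per kb (SD 8.10), followed by Per1 at 29.4, Cry2 at 27.1, Nr1d2 at 23.9, Arntl at 5.76, Per2 at 4.62, Clock at 4.53, Cry1 at 4.38, Per3 at 1.89 and Npas2 at 0.523. Per1 was above Nr1d1 in 4 of the 8 tumour libraries, and the order of Clock and Cry1 also differed between the tumour groups. Arntl stood in the ninth place in sham, level with Per2 in control (2.44 and 2.43), and in the fifth place in both tumour groups, and 5 of the 8 tumour libraries had it above Per2.

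The other transcriptional parts of the loops split as well. Of 9 accessory clock genes 8 were measured, and 4 rose and 2 fell in splenic C26 while 4 rose and 1 fell in subcutaneous C26. Over all genes 28.1% rose and 23.9% fell in splenic C26, and 27.0% rose and 23.1% fell in subcutaneous C26. Rora encodes a receptor that opposes REV-ERB at its element. Rora stood at 141 to 203 CPM in sham and at 323, 802, 853 and 709.8 CPM in splenic C26, and at 982, 1167, 352 and 1139 CPM in subcutaneous C26 against 139 to 175 CPM in control. The splenic C26 replicate 1 and subcutaneous C26 replicate 3 values lay nearest the tumour-free range, and neither tumour group overlapped its tumour-free group. Rora rose by 2.00 ± 0.34 (adjusted p = 0.000374, edgeR) and 2.51 ± 0.34 (adjusted p = 0.000111, edgeR). Bhlhe41, a repressor that binds E-boxes, fell by 2.37 ± 0.42 and by 2.60 ± 0.42 on the log2 scale, from 101 to 19.5 CPM and from 120 to 19.8 CPM on average. Its relative Bhlhe40 did not pass (0.29 ± 0.19 and -0.48 ± 0.19), nor did Ciart, a repressor of CLOCK and BMAL1 (0.37 ± 0.48 and 0.55 ± 0.48). Ciart was 3.60 CPM in subcutaneous C26 replicate 3 and 12.5 to 15.8 CPM in the others of that group. Timeless rose by 0.79 ± 0.24 and 0.76 ± 0.24.

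The output factors of the clock bind D-boxes. Of the 4, 1 rose, 2 fell and 1 did not pass in each comparison, while 52.0% and 50.0% of all genes passed in either direction. Dbp, an activator whose own gene is driven by CLOCK and BMAL1, stood at 95.2 to 125 CPM in sham and at 22.8, 7.08, 7.29 and 7.57 CPM in splenic C26, a log2 fold change of -3.26 ± 0.37 (adjusted p = 4.22e-05, edgeR). In subcutaneous C26 it changed by -4.14 ± 0.38 (adjusted p = 1.12e-05, edgeR), with replicate 3 at 9.36 CPM, near the other 3 at 4.30 to 7.14 CPM. Hlf changed by -2.19 ± 0.32 and -1.998 ± 0.31, Tef did not pass (0.054 ± 0.12 and -0.050 ± 0.12), and Nfil3, the repressor at the same sequence, rose by 2.81 ± 0.33 and 2.45 ± 0.32.

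**Figure D4:**
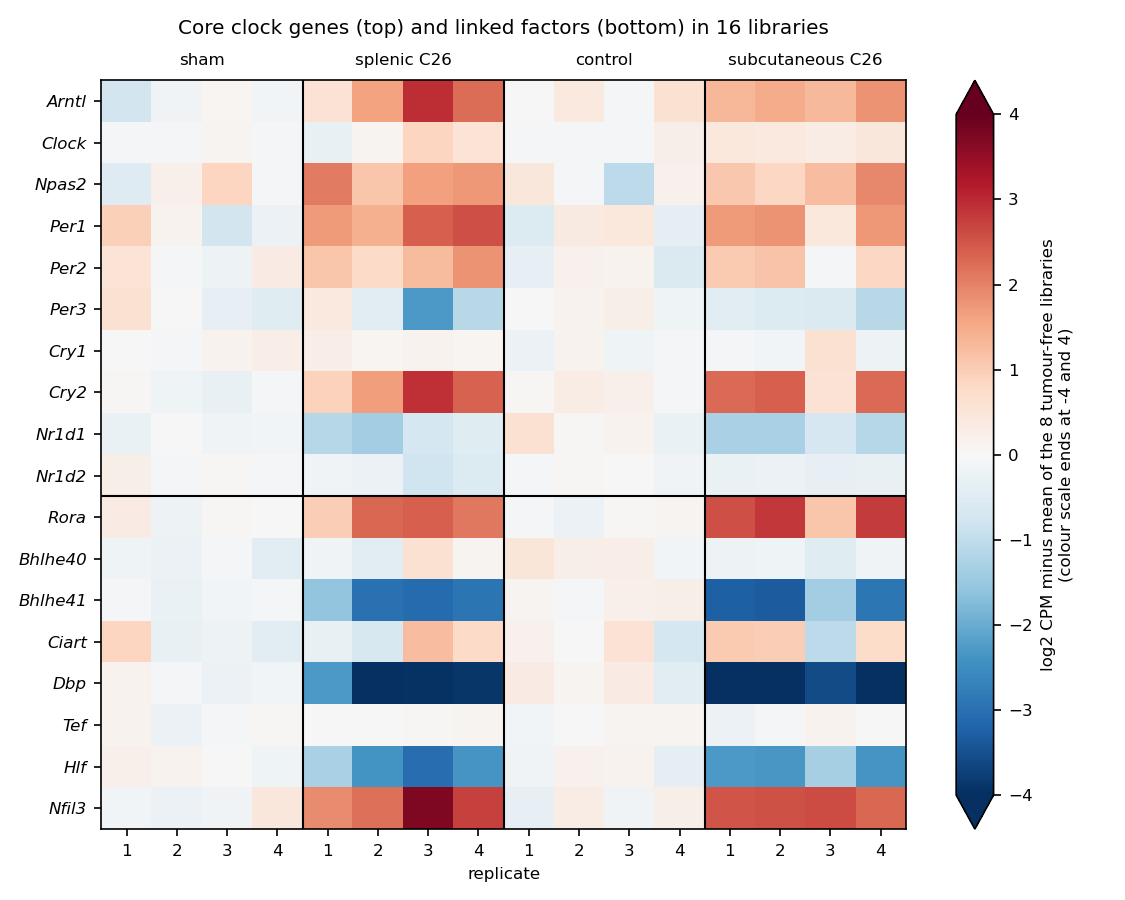
Log2 CPM minus the mean of the 8 tumour-free libraries for the 10 clock genes (above the line) and 8 linked factors (below it), with 1 column a library. Dbp lies between -4.69 and -2.30 in the 8 tumour libraries, and Tef between -0.24 and 0.14 in all 16.

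Of 15 genes for kinases, ubiquitin ligases and other enzymes that act on clock proteins 14 were measured. In splenic C26 9 rose and 3 fell, and in subcutaneous C26 10 rose and 0 fell. The shares over all genes, here and for the lists that follow, were 28.1% higher and 23.9% lower in splenic C26. In subcutaneous C26 they were 27.0% higher and 23.1% lower. Csnk1e and Csnk1d encode the casein kinases that phosphorylate PER proteins. Csnk1e rose by 0.92 ± 0.14 and 1.01 ± 0.14 and Csnk1d by 0.85 ± 0.15 and 0.75 ± 0.15. Fbxw11, which encodes a ligase subunit that marks PER proteins for breakdown, rose by 0.70 ± 0.18 and 1.17 ± 0.18, while its relative Btrc changed by -0.43 ± 0.12 in splenic C26 and did not pass in subcutaneous C26 (-0.17 ± 0.12). Of 12 chromatin partners 10 rose and 1 fell in splenic C26, and 8 rose and 0 fell in subcutaneous C26. Sirt1, an NAD-dependent deacetylase, rose by 0.99 ± 0.19 and 1.30 ± 0.19, and Wdr5, a histone methylation cofactor, by 1.21 ± 0.16 and 1.09 ± 0.16. Of 8 muscle genes known to depend on the clock 7 were measured, and 4 rose and 1 fell in splenic C26 while 1 rose and 0 fell in subcutaneous C26. Pdk4, which inhibits pyruvate oxidation, rose in both (3.13 ± 0.46 and 2.52 ± 0.45). Ucp3, a mitochondrial carrier gene, rose by 1.79 ± 0.36 in splenic C26 and did not pass in subcutaneous C26 (0.71 ± 0.35, adjusted p = 0.103, edgeR), and the difference between the tumour effects did not pass (1.08 ± 0.50). Myod1 and Tcap did not pass in either comparison, and Myod1 was at 7.30 to 12.1 CPM in 3 subcutaneous C26 libraries and at 44.4 CPM in replicate 3.

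Some pairs of members varied together among replicates. Values were taken as log2 CPM minus the mean of the library's own group, over 16 libraries. All genes of a library share its depth and its scaling factor, and r is given as a description. Arntl and Clock had a Pearson r of 0.939 over 16 libraries and 0.709 over the 12 that are not splenic C26. Per1 and Per2 had 0.878 and 0.869. Arntl and Per3 ran opposite to each other, with r = -0.946 over 16 libraries and -0.813 over the 12 that are not splenic C26. Without any 1 of the 16 libraries these r values were 0.862 to 0.962 for Arntl and Clock, 0.821 to 0.919 for Per1 and Per2 and -0.958 to -0.911 for Arntl and Per3. Cry1 and Cry2 had r = -0.643, and -0.801 over the same 12, but without subcutaneous C26 replicate 3 the values were -0.159 and 0.169, so that the opposition rested on this library. Per3 and Cry2 had r = -0.592, which was -0.359 without splenic C26 replicate 1 and 0.038 without the splenic C26 group. Among 12012 genes of at least 1 CPM, the 5 most like Arntl over the 16 libraries were Ppme1 (r = 0.940), Clock (0.939), Tnfrsf12a (0.932), Pithd1 (0.924) and Traf3ip2 (0.922). For Per2 they were Per1 (0.878), Endov (0.873), Stx3 (0.867), Map3k6 (0.866) and Pgf (0.862), and for Nr1d1 they were Rtfdc1 (0.868), Msra (0.856), Slirp (0.837), Mdm1 (0.834) and Mrps18c (0.825). Over the 8 tumour-free libraries Per2 was most like Cry2 (0.977), Rpl12 (0.971), Usp2 (0.962), Ezr (0.945) and Asb16 (0.945). There Arntl was most like Nedd9 (0.959), Bloc1s4 (0.956), Ddx27 (0.955), Fam20a (0.954) and Zfp706 (0.952), and Nr1d1 like Pvrl1 (0.984), Rtfdc1 (0.982), Dclk1 (0.979), Tmem106b (0.968) and Abhd4 (0.967). Leaving out any 1 library, r for these genes was 0.767 or higher over the 16 and 0.907 or higher over the 8 tumour-free libraries. The genes were picked from 12012 for high r in these same libraries, so these values are not separate support. Rtfdc1 alone was among the nearest genes of Nr1d1 in both sets of libraries, of which the 8 are part of the 16.

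**Figure D5:**
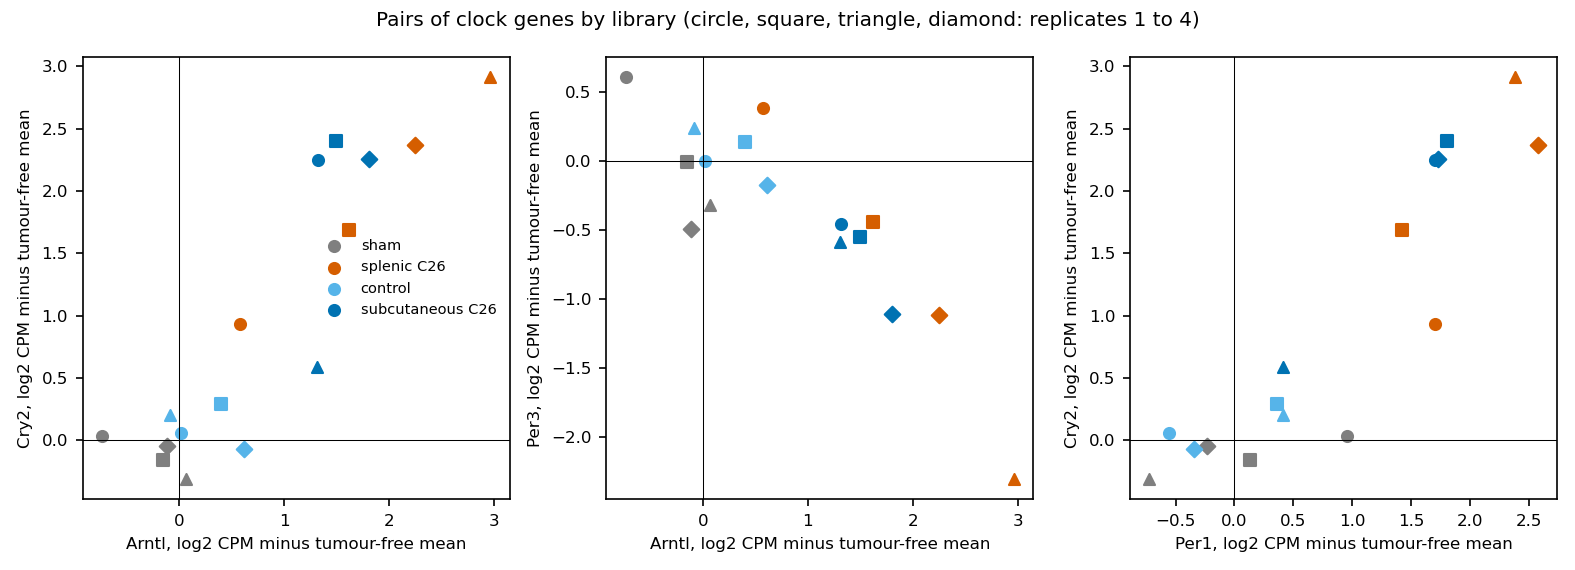
Log2 CPM minus the tumour-free mean of 3 pairs of clock genes in 16 libraries, with colours for groups and symbols for replicates 1 to 4. In the pair of Arntl and Cry2, subcutaneous C26 replicate 3 (a blue triangle) lies with its group on the Arntl axis and far below it on the Cry2 axis.

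A pair of tumour libraries had clock genes at different distances from the tumour-free level. In subcutaneous C26 replicate 3, Per1, Per2 and Cry2 (77.6, 14.9 and 62.9 CPM) were each the lowest of their group by a wide gap. Arntl (38.1 CPM), Clock (58.4 CPM) and Nr1d2 (126 CPM) were also the lowest, but near the other 3. Npas2 (2.36 CPM) and Per3 (19.1 CPM) lay within the range of the other 3, and Nfil3 (142 CPM) just above it. Cry1 (21.04 CPM), Nr1d1 (151 CPM), Hlf (10.4 CPM) and Bhlhe41 (42.2 CPM) were the highest of the group by a wide gap. In splenic C26 replicate 1, Arntl (22.8 CPM), Clock (38.2 CPM) and Cry2 (80.2 CPM) were the lowest and Per3 (37.4 CPM) the highest of the group, whereas Npas2 (4.28 CPM) was the highest and Nr1d1 (109 CPM) the second lowest. The glucocorticoid-induced genes Fkbp5 and Tsc22d3 stood at 216 and 315 CPM in splenic C26 replicate 1 and at 273 and 308 CPM in subcutaneous C26 replicate 3, in each case the lowest of the group. Of the 14 genes of that list 13 rose in splenic C26 and 12 in subcutaneous C26, with 0 lower in both. Over all genes 28.1% rose in splenic C26 and 27.0% in subcutaneous C26. The part of glucocorticoids in the clock gene values was not tested.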

How the data were processed

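Quadriceps RNA of 16 samples was sequenced as 75-base paired ends. The deposited table holds raw counts per gene symbol, made by the authors with STAR and featureCounts per the labels; the submitters' processing notes name FastQC, STAR, edgeR and mm10. A second table deposited by the authors holds log2 values, which, apart from a shift for each gene and each library, were log2 CPM (residual SD 0.00102 over 6753 genes). The 4013 blank lines were left out, and 13320 genes were tested. All of them exceeded 0.5 CPM in at least 4 libraries, so low genes had been removed earlier. R 4.3.3 with edgeR 4.0.16 fitted the counts by its robust quasi-likelihood method, with TMM scaling and a mean for each group over the 16 libraries; p-values were adjusted over all genes (Benjamini-Hochberg, threshold 0.05). SE is the absolute log2 fold change divided by the root of F. Log2 CPM used a prior count of 2. The fit was tested on simulated data with 200 changed genes. No pair of libraries in a group was a repeat (lowest chi-square per degree of freedom 12.9). Exon lengths came from GENCODE M21, which matched 96.4% of symbols, and promoter sequences from RefSeq (GRCm38.p6).

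The members, 7 gene lists, 9 cell type lists and tests were chosen with earlier results of these data known. Named genes were the 10 members, a fixed set of clock-linked genes, the 2 of each list with the smallest p, genes sharing exons with a member, and the 5 most like Arntl, Nr1d1 and Per2. A gene of the fixed set is not reported here. Csnk1d, Btrc, Slc4a1 and Mki67 were named after their values were seen. Alternatives were RLE and upper-quartile scaling, 2 count filters, DESeq2 1.42.0, limma-trend (limma 3.58.1) on the log2 values, fits of 8 libraries, removal of the 10 most abundant genes, removal of 4 libraries in which Ngp, Mki67 or (tumour and sham libraries only) Alb exceeded 10 CPM, and omission of each library. The omission of splenic C26 replicate 1 and subcutaneous C26 replicate 3 together was chosen after seeing the data.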

Additional observations from a re-analysis of the deposited data

Results flagged for a closer look

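Of 40 sets of 4 replicates (10 clock genes in 4 groups), 4 had 1 library set apart from the other 3 by a gap above Dixon's 95% critical value for 4 samples; chance gives about 1 in 20. Subcutaneous C26 replicate 3 was the library in 3 of them. It had Per1 at 77.6 CPM against 189 to 203 CPM in the others, Cry2 at 62.9 CPM against 199.9 to 221 CPM, and Cry1 at 21.04 CPM against 11.9 to 12.99 CPM. The fourth was Clock in control replicate 4, at 55.8 CPM against 44.7 to 45.4 CPM in the other controls. The reason was not tested.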

How the results depend on the processing

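Over all alternatives the count of clock genes that passed was 6 to 9 in splenic C26 (7 as reported) and 4 to 8 in subcutaneous C26 (6 as reported), with leave-one-out ranges of 6 to 9 and 5 to 6. The share of all genes that passed moved too. It was 61.6% without splenic C26 replicate 1, where 9 members passed in splenic C26, and 46.2% without sham replicate 1, where 6 passed. In subcutaneous C26 it was 44.5% without the 4 libraries with high Ngp, Mki67 or Alb, where 4 members passed, and 52.9% with only its 8 libraries, where 8 passed. Arntl, Npas2 (where tested), Cry2 and Nr1d1 kept direction and call in both comparisons under every alternative. Clock passed in subcutaneous C26 when only its 8 libraries were fitted (0.38, adjusted p = 0.0147, edgeR) and without splenic C26 replicate 1 and subcutaneous C26 replicate 3 together (0.41, adjusted p = 0.0191, edgeR), and Nr1d2 passed there with at least 10 CPM on average (-0.42, adjusted p = 0.0261, edgeR). With upper-quartile scaling the median gene stood at a log2 fold change of -0.236 in splenic and -0.26 in subcutaneous C26. With it Cry1 turned to -0.15 in splenic and -0.061 in subcutaneous C26. With at least 10 CPM on average, Cry1 was -0.072 in splenic C26, and 4612 genes passed in splenic, 4363 in subcutaneous C26 and 0 between sham and control, since fewer genes were tested. Cry1 in subcutaneous C26 was -0.054 without splenic C26 replicate 1 and subcutaneous C26 replicate 3 together, and -0.054 to 0.23 leaving out 1 library.

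For the difference between the tumour effects, where no gene passed, 86 passed with DESeq2, 257 without the pair of libraries just named, and 0 to 66 leaving out 1 library, and 0 members passed under any alternative. Several member differences near 0 turned sign. Clock was 0.027 with RLE scaling and 0.027 with DESeq2. Without the 4 libraries Clock was 0.053, Npas2 -0.014 and Per3 -0.11. Without the pair of libraries Clock was 0.13, Npas2 -0.057, Per3 -0.37 and Cry1 0.066, and with limma-trend Per3 was -0.091. Leaving out 1 library gave -0.21 to 0.19 for Clock, -0.072 to 0.46 for Npas2, -0.026 to 0.34 for Per2, -0.36 to 0.44 for Per3, -0.16 to 0.11 for Cry1 and -0.0080 to 0.64 for Cry2. Between sham and control, where 1 gene passed, 58 passed with DESeq2, 7 with limma-trend, 0 with only the 8 libraries, 47 without the 4 libraries, 46 without the pair, and 0 to 7 leaving out 1 library, and 0 members passed under any alternative. Per1 was -0.018 there without the 4 libraries. Leaving out 1 library gave -0.060 to 0.062 for Clock, -0.082 to 0.47 for Npas2, -0.26 to 0.34 for Per1, -0.32 to 0.088 for Per3 and -0.014 to 0.088 for Nr1d2. The cause was not tested.

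No paired analysis was possible because replicate numbers were given in accession order and the numbers in the titles do not match between groups. Npas2, with as few as 12 counts in a library, is the member most limited by depth. The labels give neither the time of day of collection nor the strand of the counting, and 4 libraries a group limit the precision.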
